A study of Mus musculus with 4 samples.

Results

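The 40 genes described here encode the unfolded protein response and the secretory machinery of the endoplasmic reticulum (ER), out of 52476 gene names in the table. They were taken as a list of gene names by function, with no threshold on their values but with earlier results of these data known, and all 40 were found in the table. By role they fall into 11 chaperones and their cofactors, 6 genes of oxidative folding, 4 stress sensors and their transcription factor, 5 genes of ER-associated degradation, 10 genes of protein translocation and 4 genes of glycan transfer. RNA-seq was done on mouse macrophages derived from bone marrow (BMDM), either wild type (WT) or lacking OGT, which adds O-linked N-acetylglucosamine to proteins of the nucleus and cytosol. The study asked how loss of OGT affects gene expression as macrophages take the alternatively activated (M2) state under IL-4.

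The 4 groups were WT at 0 h, WT at 24 h, OGT knockout at 0 h and OGT knockout at 24 h. All of them had first spent 7 days in RPMI medium with M-CSF at 20 ng/mL, which turns marrow cells into macrophages. The 24 h groups then received 20 ng/mL of IL-4 for 24 h. Both 0 h samples carry the same IL-4 tag and were read as untreated from their time. The sources used here do not give the deleted portion of Ogt, the means of deletion, the strain or the age of the mice. Each group held 1 library, so there are no replicates, no test is given, and every difference is a description of these libraries. There is no labelled sample held 24 h in medium alone, so IL-4 and time in culture cannot be told apart. In such bulk RNA, fewer cells of a type and less RNA per cell cannot be told apart either.

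The ER is where secreted and membrane proteins enter the secretory route, receive their first glycan, form disulfide bonds and fold. When unfolded protein builds up there, 3 sensors in the ER membrane, IRE1 (Ern1), ATF6 and PERK (Eif2ak3), signal to the nucleus and to the ribosome. IRE1 splices Xbp1 mRNA into the form that encodes an active transcription factor, ATF6 is cut to release another, and PERK slows translation. XBP1 and ATF6 raise the genes of chaperones, oxidoreductases, translocation and degradation, and cells that secrete much protein, such as plasma cells, depend on them.

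Several chaperone genes of the response carry an ER stress element in their promoter, a site for ATF6 and XBP1 together with the CCAAT-binding factor NF-Y. The element (ERSE) was searched as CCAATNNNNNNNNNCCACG, and a shorter form (ERSE-II) as ATTGGNCCACG, on both strands of the RefSeq promoters of GRCm38.p6, from 250 bases before to 50 after the annotated start. A promoter was in the table for 32 of the 40 genes. ERSE was in 7 of these 32 (21.9%) and in 37 of 27025 genes in the whole table (0.137%). ERSE-II was in 2 of the 32 (6.25%) and in 12 of 27025 genes (0.0444%). Both elements were first described in promoters of this gene family, so these shares are a description and no independent evidence. The matches are printed because they mark genes long known as targets of the response. Each runs 5′ to 3′ on the gene's own strand, with the 2 half-sites in capitals and 5 flanking bases on either side. Half-sites that read CGTGG before ATTGG are the element in reverse orientation.
Hspa5 (chr2:34772020-34772048, + strand): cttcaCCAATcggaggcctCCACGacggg
Hsp90b1, distal (chr10:86705633-86705661, − strand): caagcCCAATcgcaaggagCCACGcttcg
Hsp90b1, proximal (chr10:86705528-86705556, − strand): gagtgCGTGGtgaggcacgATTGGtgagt
Calr (chr8:84847070-84847098, − strand): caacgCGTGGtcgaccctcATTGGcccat
Canx (chr11:50325795-50325823, − strand): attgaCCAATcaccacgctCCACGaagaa
Pdia6 (chr12:17266486-17266514, + strand): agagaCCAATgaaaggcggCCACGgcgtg
Dnajc3 (chr14:118937822-118937850, + strand): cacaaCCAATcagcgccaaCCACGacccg
Creld2 (chr15:88819515-88819543, + strand): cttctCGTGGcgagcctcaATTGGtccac
Herpud1, ERSE-II (chr8:94386372-94386392, + strand): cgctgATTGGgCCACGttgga
Dnajb11, ERSE-II (chr16:22857847-22857867, + strand): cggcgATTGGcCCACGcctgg
Measured from the start, the element of Hspa5 spans bases −65 to −47 and that of Calr −162 to −144. These starts are RefSeq's. For Hspa5 it lies downstream of the GENCODE gene start given with the values, so the element falls inside that GENCODE span. The ERSE-II of Dnajb11 lies just inside the gene, from 7 to 17 bases after the start. A match is only a match of letters, and no binding was measured.

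The unit, read from the values as FPKM, divides fragments by transcript length and library size, so levels can be compared between genes. Library totals ran from 338704 to 353093 FPKM, and the depth, which the files do not state, was estimated at 20000000 to 21900000 fragments. With the longest coding transcript taken for each of the 40 genes, the fewest fragments were an estimated 149, for Sec61b in its lowest library. These carry a counting error of 8.18%. Shorter transcripts would give fewer fragments and larger errors, so this is the favourable end. Ogt stood at 27.4 and 29.8 FPKM in WT (0 h, 24 h) and at 14.2 and 14.5 in the knockout, a log2 difference of −0.90 at 0 h and −0.99 at 24 h, so Ogt mRNA was still present in the libraries labelled knockout. A transcript lacking only the deleted portion would still be counted, but whether that holds here was not tested. Mgea5, the gene of another O-linked N-acetylglucosamine enzyme, stood at 31.4 and 23.4 FPKM in WT and at 14.9 and 10.6 in the knockout. It was lower past 2-fold at both times (−1.03 and −1.08), beside 1.75% and 1.45% of kept genes past 2-fold in either direction. Of the 7 IL-4 markers found, 6 were higher past 2-fold at 24 h in each genotype, beside 4.76% and 5.16% of all kept genes. Retnla, with the largest rise, went from 2.17 to 12961 FPKM in WT and from 2.23 to 14904 in the knockout. Arg1 went from 0.122 to 240 and from 0.0664 to 219, and Chil3 from 334 to 1738 and from 182 to 1164. Mrc1 did not pass 2-fold, at 182 and 341 FPKM in WT and 174 and 282 in the knockout (0.90 and 0.69). All 10 macrophage markers were at 1 FPKM or more in every library, with a summed level of 18808 and 15789 FPKM at 0 h and 6446 and 6474 at 24 h (WT, knockout). The 12 B and plasma cell markers summed to between 88.1 and 207 FPKM, the 11 neutrophil markers to 3372 and 2156 at 0 h and 1052 and 686 at 24 h, and the 9 stromal and 7 dendritic markers to at most 14.3 and 3.46. Of the B and plasma cell markers, 7 of 12 reached 1 FPKM at 0 h and 6 at 24 h in each genotype. Mzb1 was listed at 0 throughout and Pax5 stayed under 0.04 FPKM, while Ighm stood at 119 and 152 FPKM at 0 h and 9.05 and 14.1 at 24 h, and Irf4, which macrophages also use, went from 1.97 to 46.0 in WT and from 3.33 to 58.4 in the knockout. Mitochondrially encoded genes took 6.28% and 7.47% of the total at 0 h and 9.01% and 8.99% at 24 h.

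Differences are given as log2(FPKM + 1), and a gene is called higher or lower where this differs by at least 1, which is 2-fold. In WT, 10 of the 40 genes rose past 2-fold with IL-4 (25% of them), while 4.76% of the 11687 genes kept for the comparison did. One, Herpud1, fell, while 6.26% of kept genes did. In the knockout 11 rose, beside 5.16% of 11577 kept genes, and 0 fell, beside 5.99%. The median difference of the 40 genes was 0.55 in WT and 0.59 in the knockout, where the medians of all kept genes were 0.02 and 0.03. Positive differences, however small, made up 52.0% of all kept genes in WT and 52.7% in the knockout, and the counts by role are to be read against these shares and the 4.76% and 5.16% past 2-fold. At the weaker threshold of 1.5-fold, 17 of the 40 were higher in WT, with 13.3% of kept genes, and 20 in the knockout, with 13.8%. Herpud1 was the 1 gene lower at 1.5-fold in the knockout, with 13.4% of kept genes.

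The 10 genes past 2-fold in WT were Pdia4, Sdf2l1, Creld2, Calr, Pdia6, Hsp90b1, Hyou1, Manf, Spcs3 and Rpn1, and all 10 also passed in the knockout. Xbp1 was the 11th there. In 32 of the 40 both 24 h values lay above both 0 h values, which held for 35.3% of 12000 genes at 1 FPKM in any library. In 5 (Ern1, Atf6, Eif2ak3, Herpud1, Derl1) both 24 h values lay below, as in 31.5% of genes. Txndc5, Edem1 and Edem2 did neither. Summed, the 40 genes took 0.505% of all FPKM in WT at 0 h and 0.908% at 24 h, and 0.477% and 0.856% in the knockout.

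**Figure D1:**
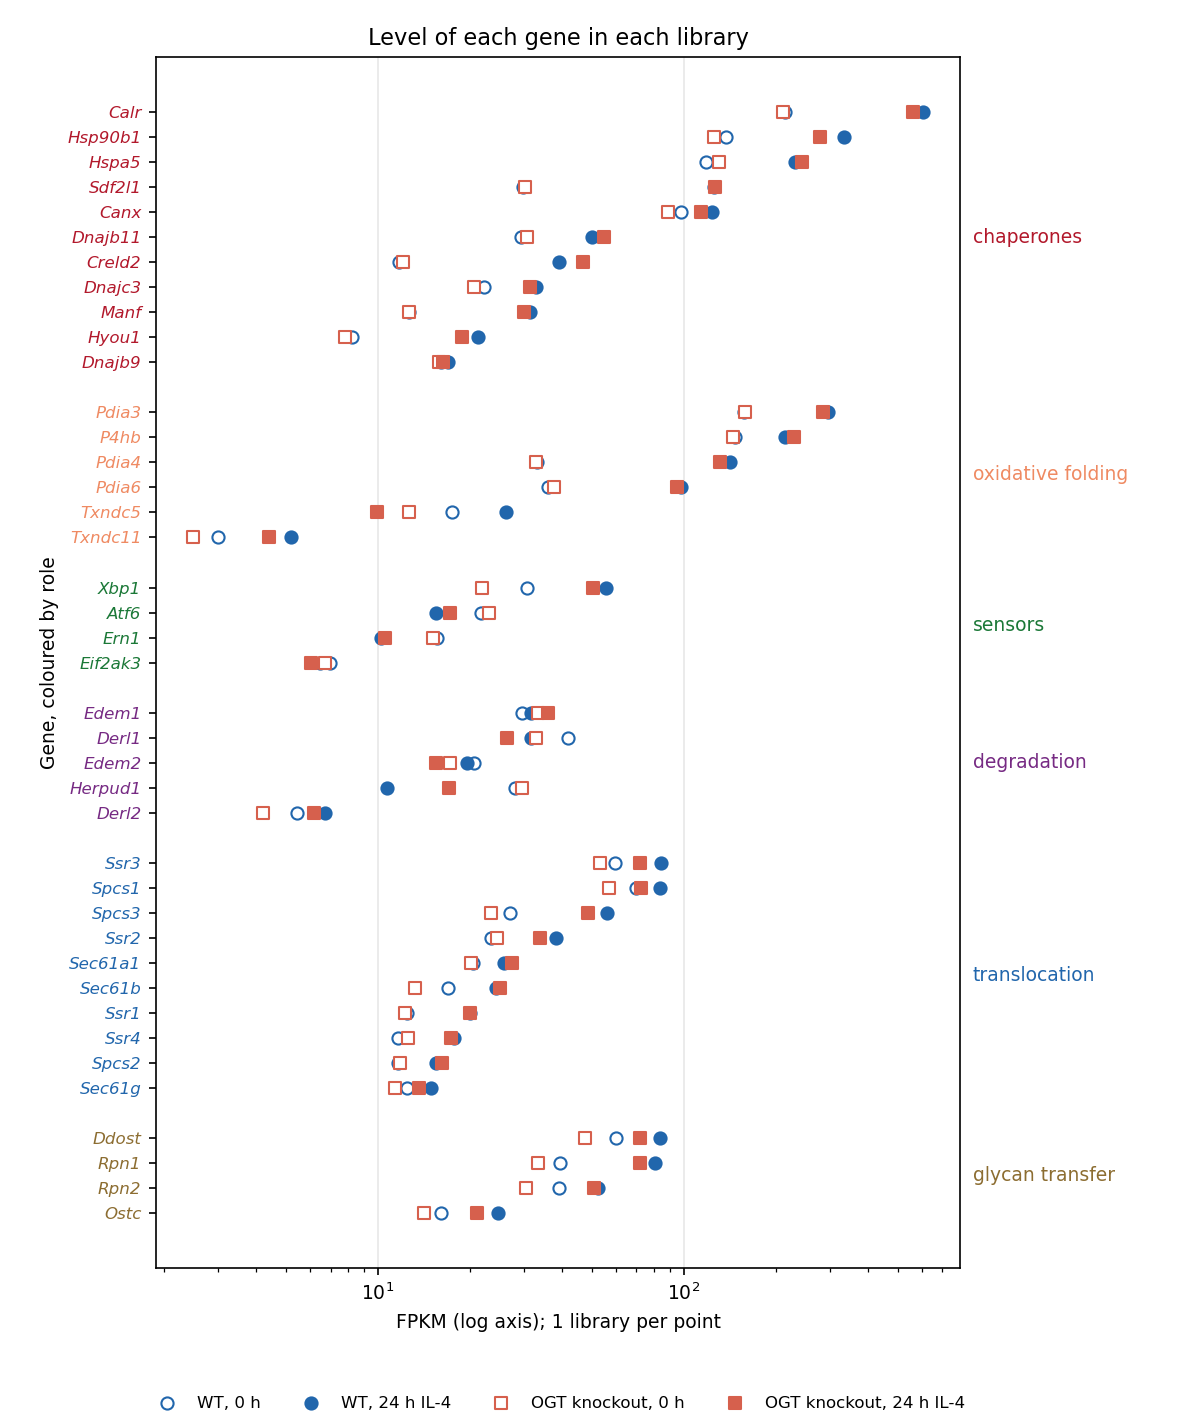
FPKM of each of the 40 genes (log axis) in the 4 libraries, grouped by role and ordered by level in WT at 24 h. Filled symbols (24 h IL-4) stand right of open ones (0 h) for most chaperone, oxidative folding, translocation and glycan transfer genes, and left of them for Ern1, Atf6 and Herpud1.

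Chaperones showed the highest median of the 6 roles, 1.24 in WT and 1.14 in the knockout (0.98 and 0.90 with a pseudocount of 5, still the highest). All 11 had positive differences in both genotypes and 6 of 11 rose past 2-fold in each, beside 4.76% and 5.16% of all kept genes. With a pseudocount of 5 these were 5 and 4 of the 11, since Hyou1 in both and Manf in the knockout came under 2-fold. Their summed level went from 697 to 1612 FPKM in WT and from 684 to 1519 in the knockout.

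Calr encodes calreticulin, the soluble lectin that holds newly glycosylated proteins (chromosome 8, 84841850 to 84846934, − strand). It had the highest level of the 40 genes at both times, at 214 and 607 FPKM in WT (0 h, 24 h) and at 210.6 and 559 in the knockout. Both 24 h libraries stood far above both 0 h libraries, 2.84-fold in WT and 2.65-fold in the knockout, and the genotypes differed by 0.92-fold at 24 h. Canx encodes its membrane-bound relative calnexin. It measured 97.7 and 124 FPKM in WT and 88.5 and 113 in the knockout, a difference under 2-fold in both (0.34 and 0.36).

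Hspa5 encodes BiP, the HSP70 of the ER lumen and the protein that holds the sensors inactive (chromosome 2, 34771970 to 34777547, + strand). It measured 118 and 231 FPKM in WT and 129.9 and 243 in the knockout. Both genotypes came close to 2-fold without passing it, at 0.96 and 0.90, and the knockout was slightly the higher at each time. Hsp90b1 encodes GRP94, the HSP90 of the ER. Its values were 137 and 334 FPKM in WT and 125 and 279 in the knockout, which is 1.28 and 1.14, with both 24 h values above both at 0 h. A small RNA gene, Gm25745, lies in its exons on the same strand and was listed at 90.2 and 237 FPKM in WT, so some fragments may have been assigned to either.

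Sdf2l1, a partner of the BiP co-chaperones in the ER (chromosome 16, 17130138 to 17132383, − strand), gave nearly equal values in the genotypes. It stood at 29.8 and 30.2 FPKM at 0 h (WT, knockout) and at 125 and 127 at 24 h, a 4.20-fold rise in each (2.03 and 2.03). Creld2, which encodes a secreted ER stress protein with disulfide isomerase activity (chromosome 15, 88819646 to 88826683, + strand), measured 11.7 and 39.2 FPKM in WT and 12.1 and 46.9 in the knockout. It rose 3.35-fold and 3.89-fold (1.66 and 1.87), and the knockout was 1.196-fold the higher at 24 h. Manf, another secreted protein induced by ER stress, went from 12.7 to 31.4 FPKM in WT (1.24) and from 12.7 to 29.9 in the knockout (1.18). Its annotated span reaches the neighbouring gene Rbm15b on the same strand, at 4.46 FPKM or less. Hyou1, the large HSP70-type exchange factor of BiP, went from 8.24 to 21.2 FPKM (1.26) and from 7.79 to 18.9 (1.18).

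The J-domain partners of BiP did not pass 2-fold. Dnajb11 measured 29.3 and 50.04 FPKM in WT and 30.8 and 54.6 in the knockout (0.75 and 0.81), and Dnajc3, also known as an inhibitor of PERK, 22.2 and 32.8, and 20.6 and 31.4 (0.55 and 0.58). Dnajb9 encodes ERdj4, a BiP cofactor and textbook target of spliced XBP1. Its 4 values lay together, from 15.8 to 17.0 FPKM (0.07 and 0.04), the smallest response among the chaperones in both genotypes.

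**Figure D2:**
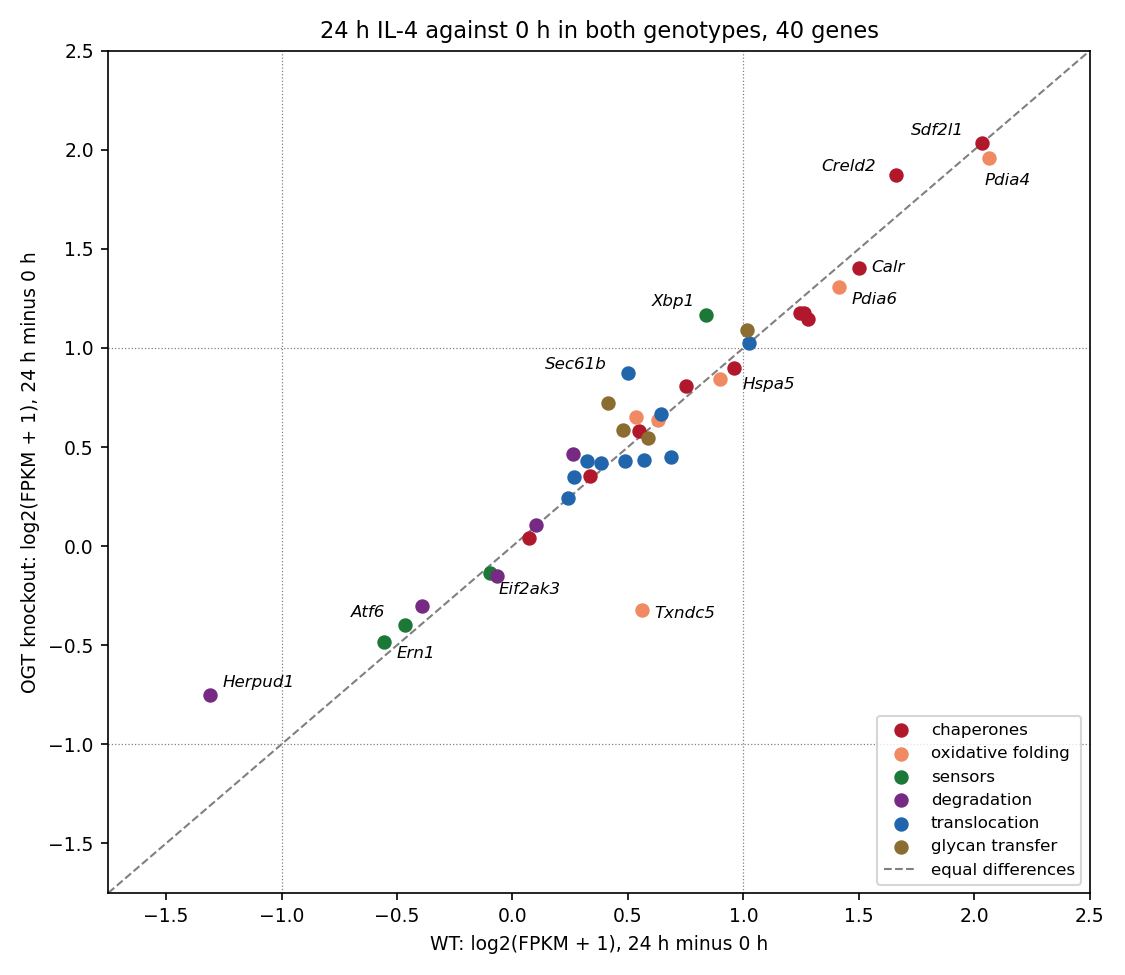
log2(FPKM + 1) at 24 h minus 0 h in the knockout against the same in WT, 1 point per gene, coloured by role; dotted lines mark 2-fold and the dashed line equal differences. Of the 40 points, 35 lie within 0.25 of the dashed line, with Txndc5 (0.56 in WT, −0.32 in the knockout) the farthest from it.

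Oxidative folding genes encode the disulfide isomerases. All 6 had positive differences in WT and 5 of 6 in the knockout, with 2 of 6 past 2-fold in each (medians 0.76 and 0.75), where 52.0% and 52.7% of all kept genes were positive. Pdia4 (ERp72; chromosome 6, 47796141 to 47813430, − strand) measured 33.1 and 141.6 FPKM in WT and 32.9 and 131 in the knockout, the largest rise of the 40 genes in WT at 4.28-fold (2.06) and 3.97-fold in the knockout (1.96). Pdia6, known to bind IRE1, went from 36.0 to 97.7 FPKM (1.42) and from 37.7 to 94.8 (1.31). In both genes the 2 values at 24 h lay above the 2 at 0 h, as in 35.3% of 12000 genes.

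The most abundant isomerases came with smaller differences. Pdia3 (ERp57), which works with the 2 lectins, measured 158 and 295 FPKM in WT and 158 and 286 in the knockout (0.90 and 0.85). P4hb encodes PDI itself and stood at 147 and 214, and at 145 and 229 (0.54 and 0.65). Txndc11, a thioredoxin-domain protein of the ER, was the lowest of the 40 genes in each library, at 3.003 and 5.19 FPKM in WT and 2.48 and 4.41 in the knockout (0.63 and 0.64). Its exons overlap Snn on the opposite strand, at 2.26 to 8.66 FPKM, and whether the counting used strand is not given in the sources used here.

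Txndc5 (ERp46; chromosome 13, 38500079 to 38528824, − strand), an isomerase with several thioredoxin domains, differed from the other 5 in its direction in the knockout. It measured 17.5 and 26.2 FPKM in WT and 12.6 and 9.90 in the knockout, so that both knockout values lay below both WT values and the knockout had its lower value at 24 h. The difference at 24 h against 0 h was 0.56 in WT and −0.32 in the knockout, neither past 2-fold. At 24 h the knockout held 0.377 times the WT level (−1.32). Of the genes kept at 24 h, 0.292% lay below it. Bmp6, which overlaps its exons on the opposite strand, was listed at 0.013 FPKM or less.

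Sensors and Xbp1 split by direction. Ern1 (IRE1) measured 15.6 and 10.3 FPKM in WT and 15.1 and 10.5 in the knockout (−0.55 and −0.48). Atf6 measured 21.7 and 15.4, and 23.0 and 17.2 (−0.46 and −0.40). For both genes each 24 h value lay below each 0 h value, without reaching 2-fold. Eif2ak3 (PERK) lay between 6.04 and 6.97 FPKM throughout (−0.10 and −0.14). Xbp1 (chromosome 11, 5520659 to 5525893, + strand), the transcription factor mRNA that IRE1 splices, measured 30.6 and 55.6 FPKM in WT and 21.8 and 50.3 in the knockout. It was thus lowest in the knockout at 0 h, and both 24 h values stood above both 0 h values. The difference was 0.84 in WT and 1.17 in the knockout, where it passed 2-fold. The value is for the whole gene and does not separate spliced from unspliced mRNA.

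Degradation genes did not rise past 2-fold in either genotype, with medians of −0.07 in WT and −0.15 in the knockout. Herpud1 (HERP; chromosome 8, 94386438 to 94395377, + strand), a membrane protein that assembles the degradation complex and a well-known stress-induced gene, measured 28.1 and 10.7 FPKM in WT and 29.5 and 17.1 in the knockout. The 0 h values were alike, and the 24 h values were both lower, with the WT library the lowest of the 4. In WT it fell to 0.382 times its 0 h level (−1.31), and in the knockout it stood at 0.58 times (−0.75), short of 2-fold. The knockout was 1.60-fold the higher at 24 h (0.63). Herpud1 and Dnajb11, which both hold the ERSE-II letters, had differences of opposite sign.

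The lectins and membrane proteins of the same route varied less. Edem1, which takes misfolded glycoproteins out of the folding cycle, lay between 29.5 and 35.9 FPKM (0.10 and 0.10). Edem2, its relative with mannosidase activity, measured 20.6 and 19.6 in WT and 17.2 and 15.4 in the knockout, with both knockout values below both WT values. The channel subunit gene Derl1 measured 41.8 and 31.7, and 32.7 and 26.4 (−0.39 and −0.30), while its paralog Derl2 measured 5.44 and 6.71, and 4.22 and 6.20 (0.26 and 0.46). Derl2 overlaps Mis12 on the opposite strand, which was at 3.30 to 12.8 FPKM.

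Translocation genes had positive differences in 10 of 10 cases in both genotypes, with medians of 0.49 and 0.43, beside 52.0% and 52.7% of all kept genes. Spcs3 alone passed 2-fold, 1 of 10, beside 4.76% and 5.16% of all kept genes. A single call among 10 genes is too few to set against these shares. Spcs3 encodes a subunit of the signal peptidase, which cuts the leader from entering proteins. It measured 27.0 and 56.0 FPKM in WT and 23.5 and 48.8 in the knockout (1.03 and 1.02), while its partners Spcs1 (69.5 and 83.8 in WT, 56.8 and 72.6 in the knockout) and Spcs2 (11.6 and 15.5, 11.8 and 16.2) stayed between 0.27 and 0.42. The differences of the 3 subunit genes were thus unequal. For Spcs3 the 2-fold call does not hold with a pseudocount of 5, where it came to 0.93 and 0.92.

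The Sec61 channel genes differed by less. Sec61a1, the pore subunit, measured 20.5 and 25.8 FPKM in WT and 20.1 and 27.4 in the knockout (0.32 and 0.43). Sec61b measured 16.9 and 24.3, and 13.2 and 25.1 (0.50 and 0.87), with its lowest value in the knockout at 0 h. Sec61g lay between 11.3 and 14.9 FPKM (0.24 and 0.24). The translocon-associated protein genes Ssr1, Ssr2, Ssr3 and Ssr4 ranged from 0.49 to 0.68 in WT and from 0.43 to 0.67 in the knockout. Ssr3 was the most abundant of these 4, at 59.8 and 84.1 FPKM in WT and 53.3 and 72.1 in the knockout.

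Glycan transfer genes encode subunits of the oligosaccharyltransferase (OST), which attaches the preassembled glycan to entering proteins. All 4 had positive differences (medians 0.53 and 0.65), where 52.0% and 52.7% of all kept genes did. Rpn1 (ribophorin I) measured 39.3 and 80.5 FPKM in WT and 33.3 and 72.1 in the knockout, 1.01 and 1.09, and passed 2-fold in both, though with a pseudocount of 5 the WT value was 0.95. Rpn2 measured 39.2 and 52.5, and 30.5 and 50.8 (0.41 and 0.72). Ddost, at 59.8 and 83.8, and 47.6 and 72.0 FPKM (0.48 and 0.59), was the most abundant of the 4 except in the knockout at 24 h, and Ostc, at 16.1 and 24.7, and 14.1 and 21.1 (0.58 and 0.55), the least. All 4 were lower in the knockout than in WT at both times, by medians of −0.28 and −0.19, with none past 2-fold. Most kept genes lay the same way, since 40.5% had positive knockout against WT differences at 0 h and 41.4% at 24 h, and 42.9% were lower in the knockout at both times. Rpn2 at 24 h (−0.05) stood at the median of all kept genes (−0.05), which scaling the libraries by median ratios moved to 0.01.

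Across the 40 genes the 2 responses ran together, with Pearson's r of 0.950 and Spearman's rho of 0.925 over the 40 genes of 1 table. They share no library, but they share gene lengths and a culture scheme, and genes are not independent replicates. No correlation over all kept genes was computed, so these values are not shown to be particular to the 40. The sign was the same in 39 of 40, with Txndc5 the exception, and in 83.15% of the 12000 genes at 1 FPKM in any library. The responses lay within 0.25 of each other in 35 of 40 and in 71.9% of those genes. The median absolute gap between the 2 responses was 0.08. No gene passed 2-fold for the knockout response minus the WT response, as 2.43% of 12000 kept genes did, and at 1.5-fold Txndc5 alone was lower (−0.88), beside 3.11% of genes. The next largest gaps were Herpud1 (0.56), Sec61b (0.37) and Xbp1 (0.33), all with the knockout response the more positive.

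Between genotypes the counts past 2-fold were near those of all genes. At 0 h 0 of the 40 passed 2-fold, beside 1.75% of 11479 kept genes, and the extremes were Xbp1 (−0.47) and Edem1 (0.17). At 24 h Txndc5 alone passed, lower in the knockout, beside 1.45% of 11302 genes. At 1.5-fold Herpud1 alone was higher there, beside 2.91% of genes. The median difference was −0.04 at 0 h and −0.07 at 24 h, with −0.05 over all kept genes at each time. The knockout value was the lower in 22 of the 40 at both times and the higher in 8 at both, beside 42.9% and 25.1% of the 12000 genes. These counts by sign can change with the scaling of the libraries. In 2 of the 40, Txndc5 and Edem2, both knockout libraries lay below both WT libraries, beside 16.8% of all genes. A gene with both 24 h values above both 0 h values (32 of the 40), or below them (5), cannot meet this. The low count therefore follows from the differences by time and is not read for genotype.

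**Figure D3:**
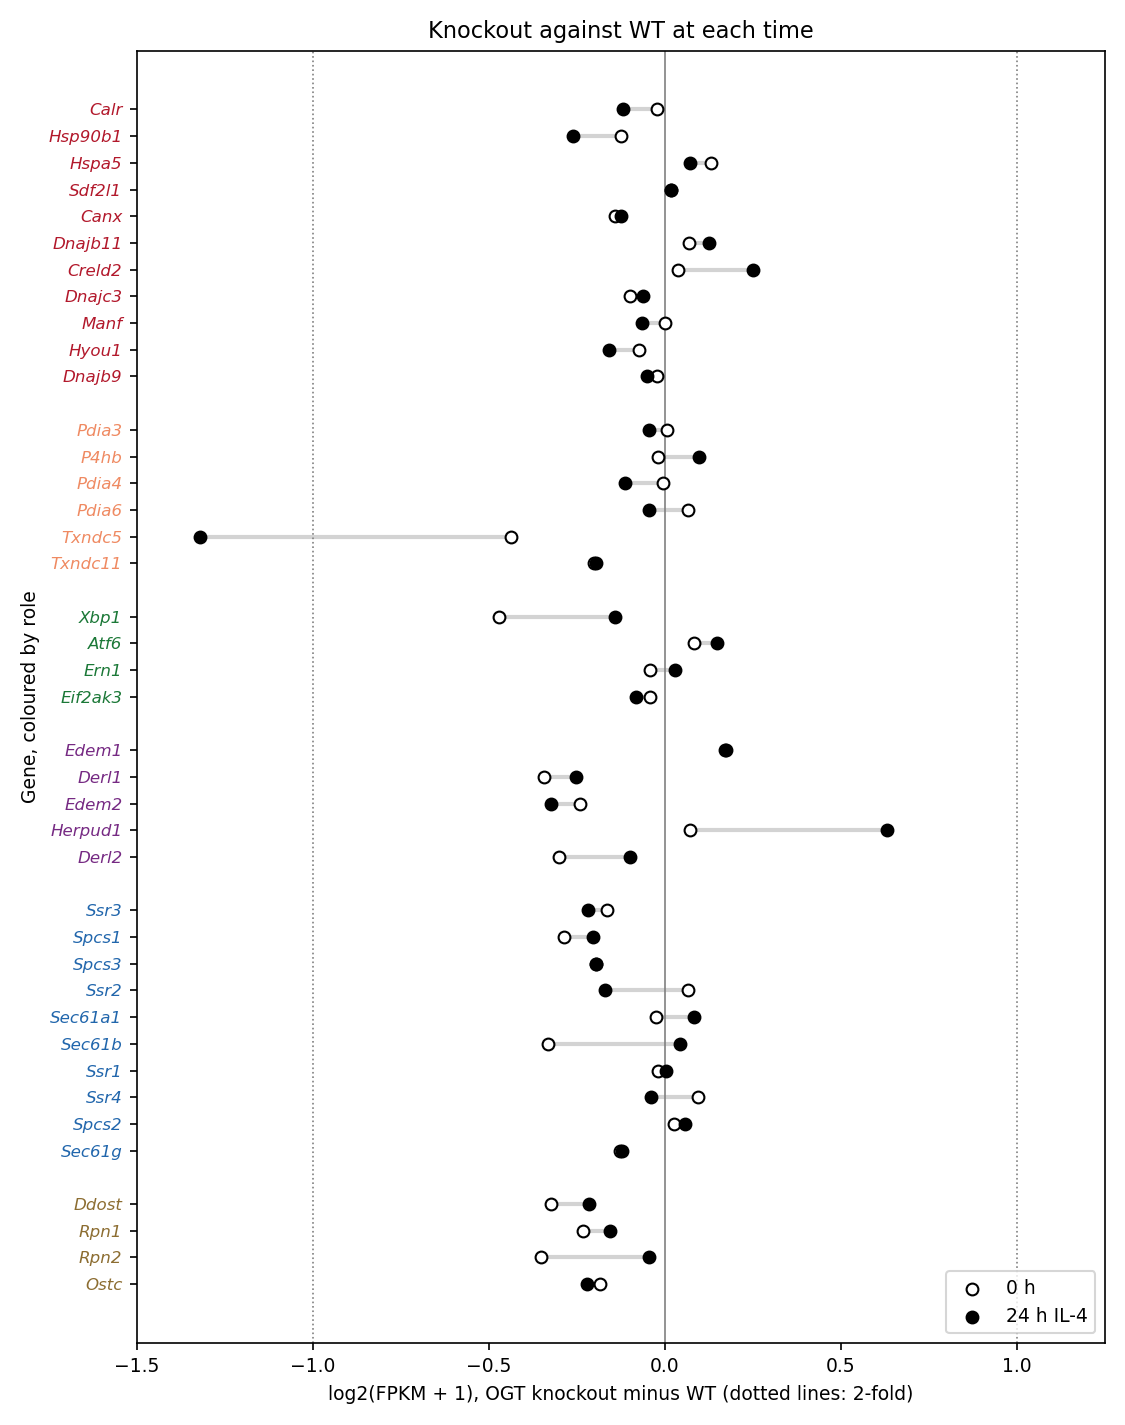
log2(FPKM + 1) of the knockout minus WT for each gene at 0 h (open) and at 24 h (filled), joined by a grey line, with 2-fold dotted. The points farthest from 0 are Txndc5 at 24 h (−1.32) and at 0 h (−0.44), Herpud1 at 24 h (0.63) and Xbp1 at 0 h (−0.47). All 4 glycan transfer genes lie left of 0 at both times.

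By promoter element, the 7 genes with ERSE letters had a median difference of 1.28 in WT and 1.14 in the knockout, and 4 of 7 rose past 2-fold in each (Creld2, Calr, Pdia6, Hsp90b1), beside 4.76% and 5.16% of all kept genes. Of these 7, 6 are chaperones, so element and role cannot be told apart here. Their range was wide, from 0.34 for Canx to 1.66 for Creld2 in WT. The 23 genes with neither set of letters in the window had medians of 0.49 and 0.46, with 3 past 2-fold in WT and 4 in the knockout. Pdia4 and Sdf2l1, whose rises were the largest in WT, are among these 23. The search took exact letters in this window only, so a missing match does not show that an element is absent. No promoter was in the table for Manf, Hyou1, Spcs3, Sec61a1, Ssr2, Ostc, Derl1 and Atf6.

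**Figure D4:**
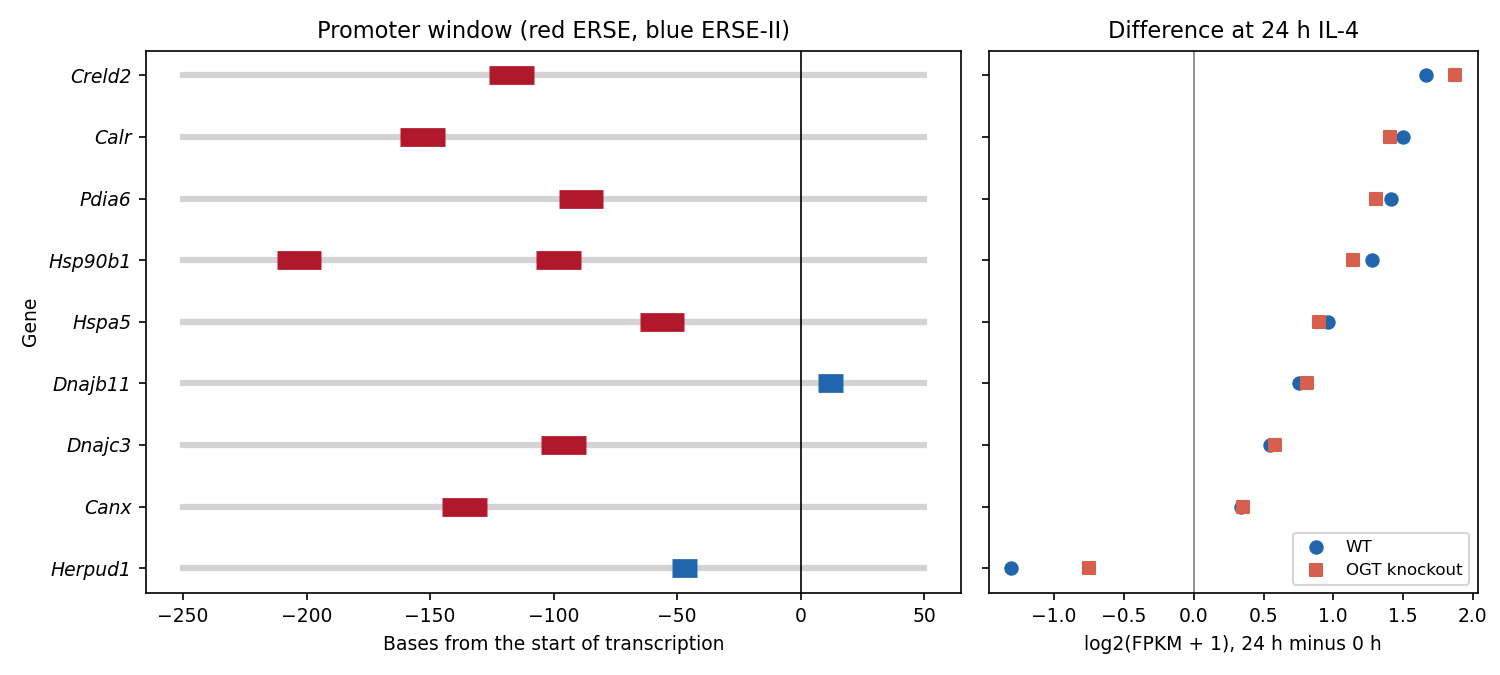
Left, position of the ERSE (red) and ERSE-II (blue) letters in bases from the annotated start for the 9 genes that hold them, in the window from 250 bases before to 50 after the start. Right, log2(FPKM + 1) at 24 h minus 0 h in WT (circles) and the knockout (squares). The ERSE genes run from 0.34 to 1.66 in WT, and Herpud1 is the 1 gene left of 0.

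Beyond the 40, other genes of the pathway had list medians below those of the 40, and their counts past 2-fold, 0 to 2 a list, are to be read against the 4.76% and 5.16% of all kept genes that were higher. Of 22 further ER chaperones and folding enzymes kept, 0 passed 2-fold in either genotype (medians 0.11 and 0.09), and 0 of 9 glycan trimming genes did (0.30 and 0.21). Among 36 genes of COPII and COPI vesicles and cargo receptors 0 passed, with a median of 0.23 in each genotype. Of 21 other degradation genes Ube2g2, a ubiquitin-conjugating enzyme, fell in WT (−1.26). It measured 24.8 and 9.75 FPKM in WT and 11.4 and 11.6 in the knockout, so the WT library at 0 h stood apart from the other 3. Stt3b, a catalytic OST subunit, rose in both (1.16 and 1.07) among 21 other glycan transfer genes, and the mannosyltransferase Alg3 passed in the knockout (1.19, with 0.89 in WT). Srprb, the signal recognition particle receptor subunit, passed in the knockout (1.28, with 0.40 in WT), as 1 of 25 genes of that list.

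The stress branches differed in direction from gene to gene. Of 11 PERK-ATF4 genes kept, the transcription factor gene Atf3 rose in both genotypes, from 133 to 411 FPKM in WT (1.62) and from 124 to 330.1 in the knockout (1.41), and Sesn2 fell past 2-fold in the knockout (−1.13) with a value of −0.97 in WT. The list's medians were 0.27 and 0.23. Among 19 other regulators of the response Wfs1 passed in the knockout (1.12, with 0.75 in WT), with list medians of −0.02 and −0.06, and among 4 kept substrates of IRE1-dependent decay 0 passed (−0.12 and −0.16).

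Chaperones of other compartments also had positive medians. For 26 cytosolic chaperones they were 0.56 in WT and 0.53 in the knockout, near the 0.55 and 0.59 of the 40 genes. Of these 26, Hsph1, Cct3 and Bag3 passed 2-fold in both (11.5%), beside 4.76% and 5.16% of all kept genes. For 15 mitochondrial chaperones and proteases the medians were 0.43 and 0.39. Hspd1 and Trap1 passed 2-fold in both and Hspe1 in WT (1.05, with 0.71 in the knockout). That is 20% and 13.3% of the 15, beside the same shares of all kept genes. Hsph1, the HSP110 exchange factor of the cytosol, went from 2.68 to 12.7 FPKM in WT and from 2.29 to 12.02 in the knockout. Hspd1, the mitochondrial HSP60, went from 33.2 to 88.6 and from 31.6 to 71.3. Alongside, the sums of all 5 marker lists were lower at 24 h than at 0 h in both genotypes and the mitochondrially encoded share was higher. The B and plasma cell sum went from 182 to 88.1 FPKM in WT and from 207 to 98.6 in the knockout, and the stromal sum from 14.3 to 6.66 and from 8.28 to 5.15. Lyz2 made up most of the macrophage sum (15193 FPKM in WT at 0 h). All 10 macrophage markers were lower at 24 h in both genotypes, with medians of −1.05 in WT and −1.28 in the knockout. Of them 5 fell past 2-fold in WT and 6 in the knockout, beside 6.26% and 5.99% of all kept genes. In WT they ran from −3.63 for Cd14 to −0.06 for Cd68, with small differences also for Spi1 (−0.19) and Csf1r (−0.32). With mitochondrially encoded genes left out and the libraries rescaled, the members' 2-fold calls held except Rpn1 in WT and Spcs3 in the knockout (0.99). The part of the marker genes in the response was not tested.

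**Figure D5:**
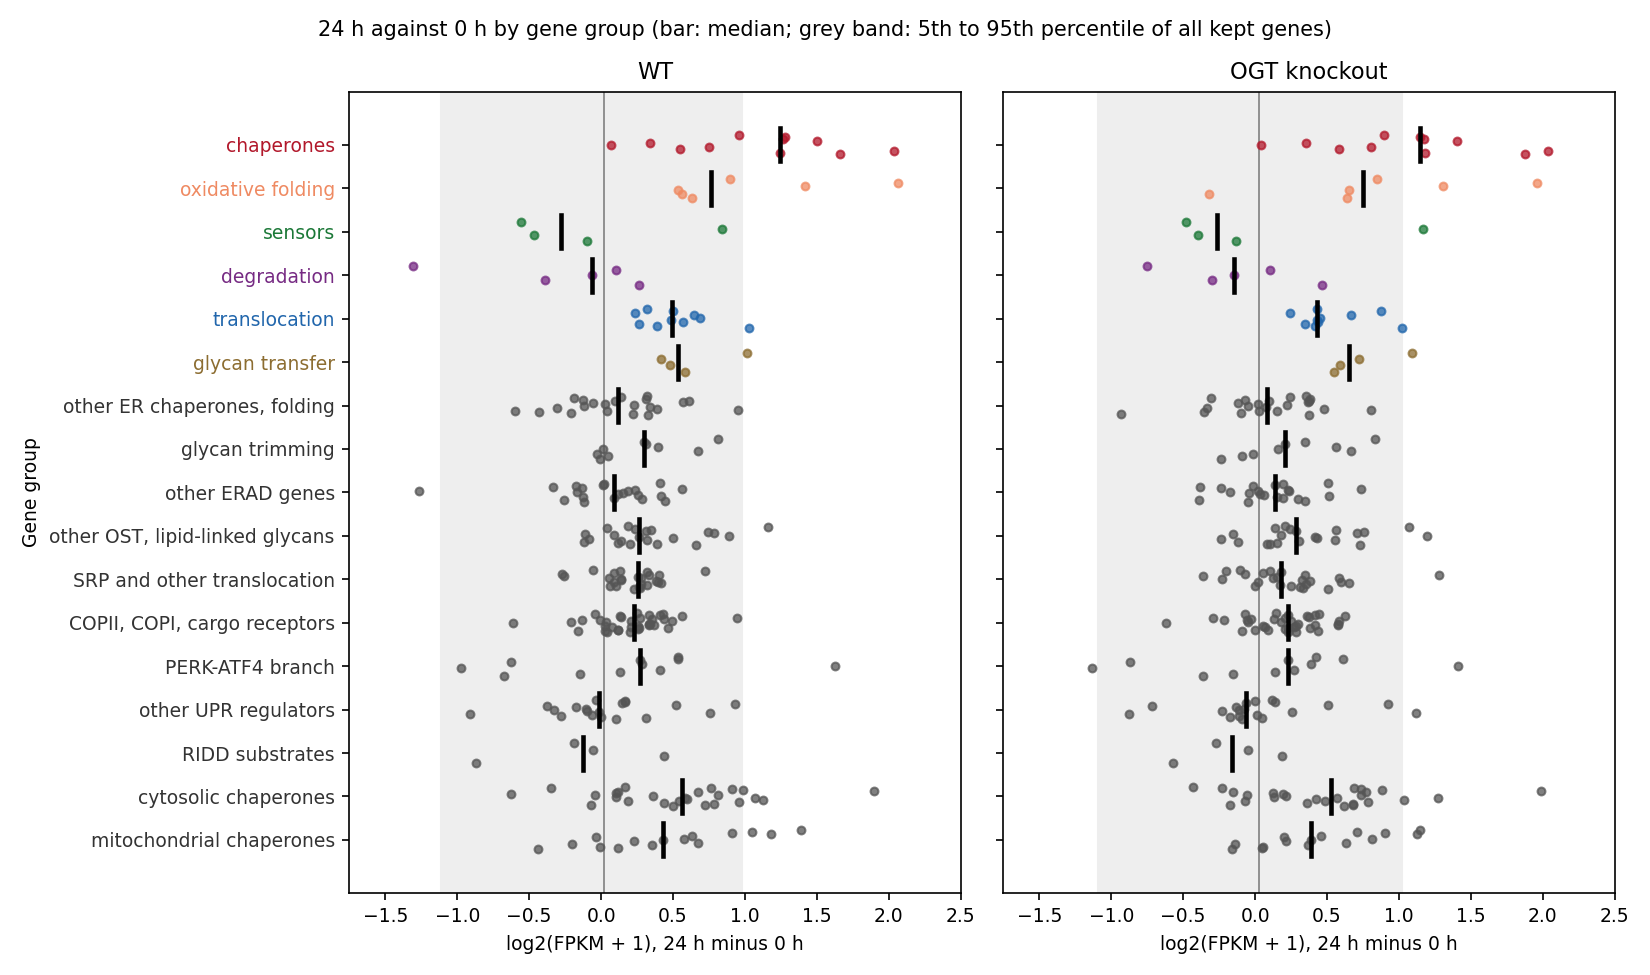
log2(FPKM + 1) at 24 h minus 0 h for the genes of each role of the 40 (coloured) and of other lists (grey), 1 point per gene, WT left and knockout right; black bars are medians, the grey line is the median of all kept genes and the band runs from their 5th to their 95th percentile. Chaperones have the highest median in both panels (1.24 and 1.14), and the medians of the sensors and the degradation genes lie below 0.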

How the data were processed

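The data are 4 RNA-seq libraries, 1 per group. Per the labels' protocols, a SMARTER mRNA kit was used on 1 µg of RNA each. STAR, StringTie and GRCm38 (mm10) are named in the submitters' processing notes; the annotation release is not given in the sources used here, nor are versions and strandedness. The deposited table, made by the authors, holds 52550 Ensembl genes with no unit named, and FPKM was read from the values, whose totals differ between libraries. Symbols and positions came from GENCODE M21, which named 52403 of them, and genes sharing a symbol were summed to 52476 names. Promoters are from RefSeq (GRCm38.p6).

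Computed here (Python 3.11.15, pandas 2.3.3, numpy 2.4.6) were differences of log2(FPKM + 1), a scale that understates low genes, in 5 comparisons. A gene was kept where any library of a comparison reached 1 FPKM, and called at 2-fold. No test was run. The calling step was checked on simulated data. Depth was estimated from the commonest FPKM-by-length product of 1-exon genes of at least 1000 bases, taken as 1 fragment, and is no count. Exons of 16 of the 40 genes overlap another gene, 3 on the same strand.

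The members, lists and thresholds were chosen with earlier results of these data known. All 40 members are named, with Ogt, Mgea5, and IL-4 and cell type markers as checks, and from each other list up to 4 genes past 2-fold. Gm25745, Rbm15b, Snn, Bmp6 and Mis12, overlapping genes, were added after their values were seen. Alternatives were pseudocounts of 5 and 0.1, no filter, a filter of 5 FPKM, 2 other scalings and 1.5-fold. A planned description of protein motifs was not done, and proteins were not used here.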

Additional observations from a re-analysis of the deposited data

Results flagged for a closer look

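Some genes had responses, or genotype differences, of opposite sign in the groups compared. With 1 library per group these differences were not tested, and the minimum gap of 0.25 was set after the values were seen. Among the 40 genes, Txndc5 had a 24 h against 0 h difference of 0.56 in WT and −0.32 in the knockout, a gap of −0.88 in the knockout response minus the WT response. For Sec61b the knockout against WT was −0.33 at 0 h and 0.04 at 24 h, a gap of 0.37.

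Among other pathway genes past 2-fold in any comparison, Ube2g2 had responses of −1.26 in WT and 0.02 in the knockout (gap 1.28). Mesd, a chaperone of LDL receptor family proteins, had 0.22 and −0.94 (gap −1.16), with its high value, 8.40 FPKM, in the knockout at 0 h. The COPII GTPase gene Sar1a had 0.94 and −0.29 (gap −1.23). The knockout against WT was −0.30 at 0 h and 0.01 at 24 h for Alg3 (gap 0.31), and −0.29 and 0.07 for Wfs1 (gap 0.36).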

How the results depend on the processing

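No paired analysis was possible because each group held 1 library. At 1.5-fold in place of 2-fold, members counted higher numbered 17 in WT (10 at 2-fold) and 20 in the knockout (11), and 1 gene was added to each of 3 counts that had been 0: lower in the knockout, higher in the knockout than WT at 24 h, and a lower response in the knockout than in WT. A pseudocount of 5 took the members' median in the knockout from 0.59 to 0.48, and by its construction it shrinks differences of low genes. It also brought Hyou1 (0.98 and 0.90), Spcs3 (0.93 and 0.92), Rpn1 in WT (0.95) and Manf in the knockout (0.98) under 2-fold, leaving 7 members higher in WT and 8 in the knockout. Scaling by median ratios brought Spcs3 (0.99 and 0.98) and Rpn1 in WT (0.98) under it. No member's 2-fold call changed direction under the 7 alternatives, and signs of smaller differences were not compared. Scaling by median ratios moved the median knockout against WT difference of all kept genes from −0.05 to 0.01 at 0 h and at 24 h. Small differences between genotypes can therefore change sign with the scaling. The share of all kept genes called higher moved with the settings, from 2.16% to 13.3% in WT and from 2.35% to 13.8% in the knockout. Depth is an estimate, and no setting replaces replicate cultures.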
